A study of Mus musculus with 12 samples.

Results

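The ERBB receptors and their ligands were followed as 10 genes, listed by name as 1 receptor family with its ligands and not by a threshold on measured values, out of 54532 genes counted in each of 12 mouse tumour libraries. The 4 receptors were Egfr, Erbb2, Erbb3 and Erbb4, and the 6 ligands were Nrg1, Hbegf, Areg, Ereg, Btc and Tgfa. The label of every sample was malignant peripheral nerve sheath tumour, a soft tissue sarcoma that arises from nerve, raised in mice of genotype WT and strain C57B/6 by an adenovirus whose Cas9 was aimed at Nf1 and a second gene, written Cdk2na in the labels. The terminal combination group held 4 tumours taken at the terminal time point from mice gavaged every day with palbociclib, an inhibitor of CDK4 and CDK6, at 100 mg/kg and mirdametinib, an inhibitor of MEK, at 1 mg/kg. The regressing group held 4 tumours from mice on the same regimen, taken while tumours were regressing. The vehicle group held 4 tumours from mice given the vehicle and also taken at the terminal stage. Sensitive and resistant tumours are mentioned in the series design, but no label assigns those words to a group, and no age is given. Harvest stage and drug exposure cannot be told apart between the regressing and vehicle groups.

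ERBB receptors are tyrosine kinases of the cell surface that pair up when a ligand binds and signal through RAS, MEK and ERK, the route that the Nf1 product neurofibromin restrains. EGFR and ERBB4 bind ligands and carry active kinases, ERBB2 has no known ligand of its own and serves as the preferred partner, and ERBB3 binds neuregulins but has a weak kinase. In Schwann cells, neuregulin 1 acting on the ERBB2 and ERBB3 pair is known for its part in survival, migration and myelination. The other ligands are made as membrane precursors and released by ADAM proteases.

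Levels are given as CPM, the count of a gene scaled to library size, with sizes adjusted by the trimmed mean of M values (TMM). The libraries held 13194699 to 22639625 counted reads, and a count of 0 allowed up to 0.133 to 0.227 CPM (3 counts per library, counting error only). The labels give no replicate numbers, so tumours are numbered here within each group in the order of the samples. Whether each tumour had its own mouse is not labelled, and a p-value here covers only the spread among these 12 samples, which may be technical in part. In bulk tumour RNA, fewer cells of a type and less RNA per cell cannot be told apart. The libraries also differed in tissue content. The skeletal muscle marker score, the mean log2 CPM of 8 genes, was 9.74 ± 1.40 (SD, n = 4) in terminal combination, 10.43 ± 1.71 in regressing and 7.26 ± 1.77 in vehicle tumours, and it was highest in regressing replicates 1 and 4 and terminal combination replicate 2. None of the 8 genes was under 1 CPM in all tumours of a group, and their summed levels were 2609 to 32224 CPM, 3740 to 51488 CPM and 524 to 8999 CPM in the same order of groups. The adipocyte score of 7 genes was 2.58 ± 1.85, 4.32 ± 1.07 and 0.40 ± 1.53 in that order, and the 7 genes summed to 80.6 to 538 CPM, 176 to 1988 CPM and 12.9 to 117 CPM. Between regressing and vehicle tumours, 6 of the 7 adipocyte genes did not overlap, where 7.64% of all genes tested did not overlap. The title ending FFT, which the sources used here do not explain, marks vehicle replicates 1 and 2, regressing replicate 1 and terminal combination replicate 1.

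All 4 receptors and 6 ligands had reads in at least 1 tumour. Per length, Egfr, Hbegf and Erbb2 stood highest and Erbb4 was barely detected. Erbb3, Btc, Ereg and Areg differed most from tumour to tumour, and the highest value of each came from 1 tumour rather than from a whole group. Of the 10 members, 8 passed the filter on low counts and entered the test, while Erbb4 and Areg did not. None of the 8 passed an adjusted p under 0.05 in the edgeR quasi-likelihood test in any of the 3 comparisons, where 0% of 15650 genes did. Without adjustment, 2 of 8 members had a p under 0.05 for terminal combination against regressing tumours (7.02% of all genes), 2 of 8 did for terminal combination against vehicle tumours (5.94%), and 1 of 8 for regressing against vehicle tumours (12.7%). DESeq2, which applies a different estimate of the spread, called 485 genes (2.66%) for regressing against vehicle tumours, and Erbb3 and Areg were among them. It called 0 members for terminal combination against vehicle tumours, where it called 11 genes (0.0531%). For terminal combination against regressing tumours it also called 0 members, of 82 genes (0.462%). The median log2 difference of the 8 members was 0.49 for terminal combination against regressing, 0.04 for terminal combination against vehicle and -0.26 for regressing against vehicle tumours, beside 0.01, 0.00 and -0.02 over all genes tested.

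Promoter sequences are shown for Egfr, the receptor with the highest mean level per length over the 12 tumours, Areg and Btc, ligands whose highest tumour stood far above the others, and Tgfa, the member whose values did not overlap between the treated groups. RefSeq promoter windows of build GRCm38.p6 were at hand for 6 of the 10 members (Egfr, Erbb2, Erbb4, Areg, Btc and Tgfa). Each sequence runs 5′ to 3′ on the strand of the gene over the 250 bases before its start, at chr11:16751953-16752202 (plus strand) for Egfr, chr5:91139349-91139598 (plus) for Areg, chr5:91402995-91403244 (minus) for Btc and chr6:86194972-86195221 (plus) for Tgfa. Capitals mark matches to 6 motifs searched on both strands, none of which overlap one another in these windows.
Egfr promoter: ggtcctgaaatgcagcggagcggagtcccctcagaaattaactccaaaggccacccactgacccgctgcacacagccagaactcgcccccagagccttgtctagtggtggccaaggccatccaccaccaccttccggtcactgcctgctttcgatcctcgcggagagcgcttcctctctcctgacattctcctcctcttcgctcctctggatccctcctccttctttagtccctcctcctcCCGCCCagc
Areg promoter: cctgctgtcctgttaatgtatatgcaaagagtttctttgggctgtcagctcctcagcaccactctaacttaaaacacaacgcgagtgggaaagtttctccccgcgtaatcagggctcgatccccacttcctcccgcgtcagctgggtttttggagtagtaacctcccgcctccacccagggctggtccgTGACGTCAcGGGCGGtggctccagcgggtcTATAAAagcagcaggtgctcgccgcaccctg
Btc promoter: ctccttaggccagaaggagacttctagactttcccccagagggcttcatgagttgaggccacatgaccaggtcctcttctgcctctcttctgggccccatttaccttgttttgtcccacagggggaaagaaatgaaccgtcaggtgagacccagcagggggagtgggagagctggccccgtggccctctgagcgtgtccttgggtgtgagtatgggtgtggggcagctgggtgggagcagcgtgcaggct
Tgfa promoter: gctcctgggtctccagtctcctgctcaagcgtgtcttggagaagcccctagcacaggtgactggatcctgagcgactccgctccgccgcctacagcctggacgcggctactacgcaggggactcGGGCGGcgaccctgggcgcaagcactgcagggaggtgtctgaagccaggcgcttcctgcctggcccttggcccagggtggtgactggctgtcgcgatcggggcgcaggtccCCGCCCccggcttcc
The motifs, with the share of 32851 RefSeq windows that hold each, were the TATA box TATAAA (12.4%), the GC box GGGCGG (32.7%), the CCAAT box CCAAT (33.8%), the AP-1 site TGANTCA (6.75%), the cAMP response element TGACGTCA (1.55%) and the E box CACGTG (6.02%). The Areg window held a cAMP response element at bases -61 to -54, a GC box at -52 to -47 and a TATA box at -31 to -26, counted back from the start. The Egfr window held 1 GC box at -9 to -4 and the Tgfa window held 2, at -126 to -121 and at -15 to -10. None of the 6 motifs is found in the Btc window. A match here is a description of the letters and not a site.

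Egfr (ENSMUSG00000020122, chromosome 11, 16752203 to 16918158, plus strand, GRCm38), the receptor for EGF, transforming growth factor alpha and amphiregulin, had the highest mean level per length of the receptors over all 12 tumours and in the regressing group. Erbb2 had the higher mean per length in terminal combination tumours (5.75, against 5.36 for Egfr) and in vehicle tumours (5.45, against 5.36) in CPM per kilobase of the union of exons. Erbb2 lay above Egfr in 3 terminal combination tumours but in only 1 vehicle tumour, replicate 2. With the longest transcript as the length, Egfr had the higher mean in vehicle tumours (5.94, against 5.67 for Erbb2). The CPM level of Egfr was 44.5, 28.0, 89.8 and 80.5 CPM across terminal combination tumours 1 to 4, 123, 87.3, 116 and 65.9 CPM across regressing tumours 1 to 4 and 67.2, 28.0, 63.3 and 84.1 CPM across vehicle tumours 1 to 4. Of the 4 regressing tumours, 3 lay above every vehicle tumour and replicate 4 lay within their range, so the groups overlapped. The regressing tumours averaged 98.1 ± 26.4 CPM, against 60.7 ± 23.6 CPM in vehicle tumours (SD, n = 4 each), a log2 difference of 0.69 ± 0.40 (SE, adjusted p = 0.489, edgeR). The difference was 0.28 among libraries lacking the FFT title ending, where vehicle replicates 3 and 4 alone stand for their group. With that ending as a covariate in all 12 libraries it was 0.67. Terminal combination tumours averaged 60.7 ± 29.3 CPM, which differed from the regressing tumours by -0.69 ± 0.40 on the log2 scale (adjusted p = 0.742) and from vehicle tumours by 0.00 ± 0.40 (adjusted p = 1). The antisense gene Egfros lies within the span of Egfr without sharing exonic bases, and the strand used in counting is not given.

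Erbb2 (ENSMUSG00000062312, chromosome 11, 98412470 to 98437716, plus strand), the receptor that pairs with the others, varied least among the members. Its values were 28.5, 21.4, 50.7 and 19.2 CPM across terminal combination tumours 1 to 4, 30.7, 25.7, 36.8 and 15.8 CPM across regressing tumours 1 to 4 and 28.2, 28.5, 27.3 and 29.6 CPM across vehicle tumours 1 to 4. The vehicle tumours lay close together, between 27.3 and 29.6 CPM, and both treated groups spread to either side of them. The log2 differences were 0.14 ± 0.31 between terminal combination and regressing tumours, 0.08 ± 0.31 between terminal combination and vehicle tumours and -0.06 ± 0.31 between regressing and vehicle tumours (SE, edgeR, adjusted p of 0.941, 0.98 and 0.948). Between regressing and vehicle tumours, an interval of 2 SE reached from -0.69 to 0.57, and differences within it were not detectable with 4 tumours a group. It shares 9 exonic bases with Mien1 on the opposite strand, a gene with 8663 reads over the 12 libraries beside 6351 for Erbb2.

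Erbb3 (ENSMUSG00000018166, chromosome 10, 128567523 to 128589652, minus strand), the neuregulin receptor, had the smallest p of the 8 members tested. Measured levels were 1.07, 1.07, 5.43 and 6.05 CPM across terminal combination tumours 1 to 4, 1.02, 1.80, 2.26 and 2.47 CPM across regressing tumours 1 to 4 and 37.0, 1.07, 8.08 and 9.63 CPM across vehicle tumours 1 to 4. Vehicle replicate 1 stood far above all other tumours and vehicle replicate 2 stood level with the lowest, so the groups overlapped in each comparison. The log2 difference was -2.88 ± 0.92 for regressing against vehicle tumours (unadjusted p = 0.00896, adjusted p = 0.271, edgeR), where DESeq2 gave -2.87 with an adjusted p of 0.0289. For terminal combination against vehicle tumours it was -2.03 ± 0.88 (unadjusted p = 0.041, adjusted p = 0.819). Without vehicle replicate 1 these differences were -1.71 and -0.88. Among libraries lacking the FFT title ending, which also leave out that tumour, they were -2.02 and -1.08. With that ending as a covariate they were -3.05 and -2.22. With the muscle score as a covariate they were -3.65 and -2.65 (adjusted p = 1 for both). For terminal combination against regressing tumours the difference was 0.85 ± 0.88 (adjusted p = 0.848).

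The tumour label was checked against 10 Schwann cell genes, and Erbb3 was set beside them. The Schwann score was 1.63 ± 0.59 in terminal combination, 1.88 ± 0.36 in regressing and 0.31 ± 0.48 in vehicle tumours (mean log2 CPM, SD, n = 4), and the summed level of the list ran from 69.0 to 197 CPM, from 161 to 205 CPM and from 47.6 to 223 CPM in the same order of groups. Sox10, the transcription factor that defines the lineage, was at 0 to 2.10 CPM in terminal combination, 0.540 to 1.16 CPM in regressing and 0 to 0.0856 CPM in vehicle tumours, and Sox10, Cdh19 and Foxd3 were all under 1 CPM in every vehicle tumour. In vehicle replicate 1, where Erbb3 was highest, Sox10 stood at 0.0856 CPM. Keratin 5, a marker of basal keratinocytes, stood above 1 CPM in that library (6.24 CPM) and in regressing replicate 3 (19.96 CPM). It was at or below 0.525 CPM in the other libraries. Among the other keratinocyte genes, Krt14 was highest in regressing replicate 3, and Krt10, Krt1 and Krt15 in vehicle replicate 1. Dsp and Sfn were highest in terminal combination replicate 1, and Trp63 in regressing replicate 4. Erbb3 stood at 2.26 CPM in regressing replicate 3. The 8 keratinocyte genes summed to 9.87 to 15.97 CPM in terminal combination, 8.01 to 44.0 CPM in regressing and 6.00 to 38.2 CPM in vehicle tumours. Without vehicle replicate 1 and regressing replicate 3, a setting chosen after seeing the data, the Erbb3 difference was -1.83 for regressing against vehicle tumours (adjusted p = 0.395). The part of these cell types in the Erbb3 values was not tested.

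**Figure D1:**
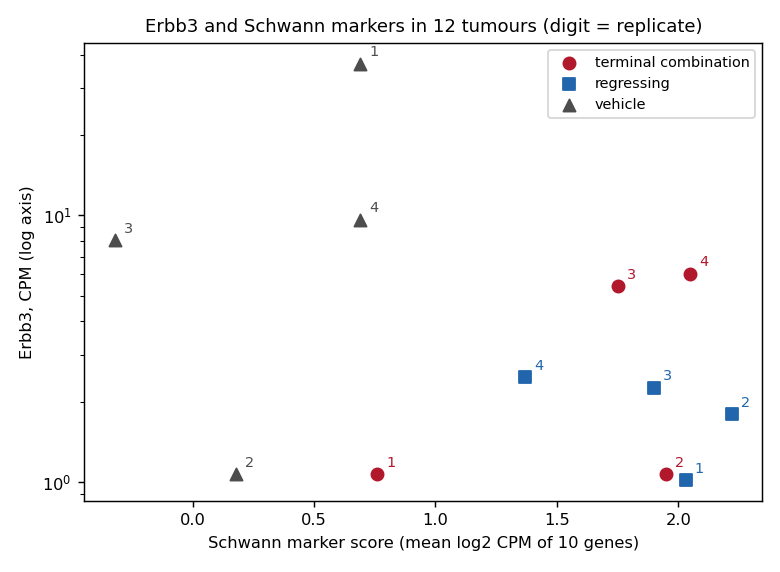
Erbb3 in CPM (log axis) against the Schwann marker score (mean log2 CPM of 10 genes) in 12 tumours, 1 symbol per tumour with its replicate number. Vehicle replicate 1 has the highest Erbb3, 37.0 CPM, at a score of 0.69, while the 4 regressing tumours lie between 1.02 and 2.47 CPM at scores of 1.37 to 2.22.

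Erbb4 (ENSMUSG00000062209, chromosome 1, 68032186 to 69108059, minus strand), the other receptor with its own ligands and an active kinase, was barely detected. It had 0 reads in all 4 terminal combination tumours, 0, 0, 0 and 4 reads in regressing replicates 1 to 4, and 1, 0, 1 and 0 reads in vehicle replicates 1 to 4. That makes 6 reads in all, with 9 libraries at 0 and 1 library above 3 reads, so no comparison was made.

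Set side by side per length, Egfr made up 36.6% to 60.3% of the summed receptor level in terminal combination, 57.9% to 64.2% in regressing and 30.4% to 50.5% in vehicle tumours. Its share in the regressing tumours lay above that of every vehicle tumour, which is a description with no test. The adipocyte score separated the same groups, at 3.76 to 5.93 in regressing and -1.37 to 2.27 in vehicle tumours. So did the Schwann score, at 1.37 to 2.22 in regressing and -0.32 to 0.69 in vehicle tumours. The part of either in the share was not tested. Egfr led the receptors in 7 libraries, Erbb2 in 4 and Erbb3 in 1, vehicle replicate 1, where it held 35.2%. With the longest transcript as the length in place of the union of exons, Egfr led in 8 libraries and Erbb3 in none, and the Egfr share was 59.5% to 65.7% in regressing and 31.9% to 52.3% in vehicle tumours.

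Hbegf (ENSMUSG00000024486, chromosome 18, 36504927 to 36515805, minus strand) encodes heparin-binding EGF-like growth factor, a ligand of EGFR and ERBB4. Its level was 18.5, 43.2, 64.8 and 33.9 CPM across terminal combination tumours 1 to 4, 24.1, 26.0, 21.6 and 10.1 CPM across regressing tumours 1 to 4 and 19.2, 40.9, 28.1 and 23.9 CPM across vehicle tumours 1 to 4. Of the 4 terminal combination tumours, 3 lay above every regressing tumour, and replicate 1 lay within their range. Terminal combination tumours averaged 40.1 ± 19.4 CPM, against 20.4 ± 7.13 CPM in regressing tumours, a log2 difference of 0.97 ± 0.39 (SE, unadjusted p = 0.0307, adjusted p = 0.693, edgeR). Leaving out each library in turn gave 0.63 (without terminal combination replicate 3) to 1.21 (without terminal combination replicate 1). Without the 3 libraries richest in skeletal muscle genes it was 0.70, and among libraries lacking the FFT title ending 1.30. The other differences were 0.52 ± 0.39 for terminal combination against vehicle (adjusted p = 0.886) and -0.45 ± 0.39 for regressing against vehicle tumours (adjusted p = 0.648).

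Tgfa (ENSMUSG00000029999, chromosome 6, 86195223 to 86275719, plus strand), which encodes transforming growth factor alpha, a ligand of EGFR, was low in all tumours. Its values were 0.921, 1.55, 1.32 and 0.628 CPM across terminal combination tumours 1 to 4, 2.68, 2.26, 2.22 and 2.39 CPM across regressing tumours 1 to 4 and 1.15, 0.429, 1.42 and 2.28 CPM across vehicle tumours 1 to 4. Every regressing tumour lay above every terminal combination tumour, while the vehicle tumours reached into both ranges. Tgfa was the single member of 8 whose values did not overlap between terminal combination and regressing tumours, where 3.90% of all genes did not overlap. No member's values were apart between terminal combination and vehicle tumours (2.5% of all genes were) or between regressing and vehicle tumours (7.64%). Of the 7 adipocyte genes, Adipoq was also apart between terminal combination tumours (mean 5.55 CPM) and regressing tumours (22.9 CPM), while the adipocyte score overlapped (0.80 to 4.76 in terminal combination and 3.76 to 5.93 in regressing tumours), and the part of adipocytes in the Tgfa values was not tested. The log2 difference between terminal combination and regressing tumours was -1.11 ± 0.46 (unadjusted p = 0.0334, adjusted p = 0.703, edgeR), at 11 to 27 reads in a terminal combination library and 31 to 50 in a regressing library. The regressing tumours differed from vehicle tumours by 0.85 ± 0.46 (adjusted p = 0.459). That difference was 0.31 among libraries lacking the FFT title ending. With that ending as a covariate it was 0.83, and with the muscle score as a covariate it was 0.47.

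**Figure D2:**
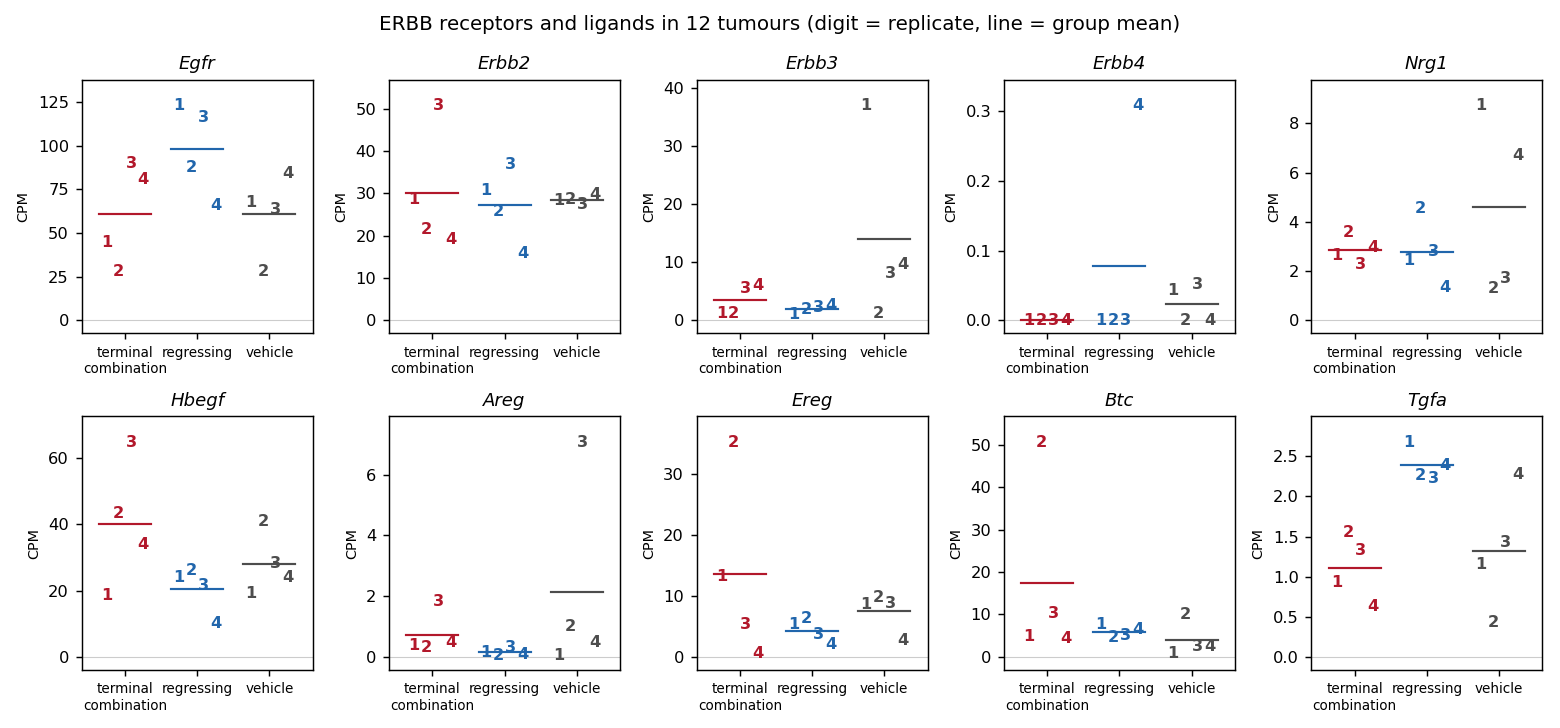
CPM of each member in terminal combination, regressing and vehicle tumours (linear axes, each from 0, digits mark the replicate, lines mark group means). The highest Btc (50.6 CPM) and Ereg (35.3 CPM) values come from terminal combination replicate 2, and the regressing Tgfa values, 2.22 to 2.68 CPM, lie above all terminal combination values.

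Btc (ENSMUSG00000082361, chromosome 5, 91357261 to 91402994, minus strand) encodes betacellulin, a ligand of EGFR and ERBB4. Measured levels were 4.81, 50.6, 10.2 and 4.39 CPM across terminal combination tumours 1 to 4, 7.58, 4.65, 5.06 and 6.40 CPM across regressing tumours 1 to 4 and 0.727, 10.01, 2.54 and 2.39 CPM across vehicle tumours 1 to 4. Terminal combination replicate 2 stood far above all other tumours, and vehicle replicate 2 stood just under the next terminal combination tumour. Between terminal combination and vehicle tumours the log2 difference was 2.17 ± 0.88 (SE, unadjusted p = 0.031, adjusted p = 0.819, edgeR), and it was 0.73 without terminal combination replicate 2, 3.21 without vehicle replicate 2 and 3.14 among libraries lacking the FFT title ending (adjusted p = 0.695). Between terminal combination and regressing tumours it was 1.56 ± 0.86 (adjusted p = 0.742), and 0.13 without terminal combination replicate 2, 2.02 among libraries lacking the FFT ending and 0.40 without the 3 libraries richest in skeletal muscle genes. With the FFT ending as a covariate, the differences from vehicle and from regressing tumours were 2.28 and 1.61. The regressing tumours differed from vehicle tumours by 0.61 ± 0.86 (adjusted p = 0.79), and by 1.65 without vehicle replicate 2. Terminal combination replicate 2 had a skeletal muscle score of 11.27, the highest of its group, and was 1 of those 3 libraries. Without them the difference between terminal combination and vehicle tumours was 0.70, and with the muscle score as a covariate it was 1.89. The part of muscle in the Btc values was not tested.

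Ereg (ENSMUSG00000029377, chromosome 5, 91074622 to 91093646, plus strand) encodes epiregulin, a ligand of EGFR and ERBB4. Its level was 13.3, 35.3, 5.33 and 0.628 CPM across terminal combination tumours 1 to 4, 5.29, 6.27, 3.73 and 2.01 CPM across regressing tumours 1 to 4 and 8.64, 9.72, 8.79 and 2.68 CPM across vehicle tumours 1 to 4. The terminal combination group held both the highest and the lowest of the 12 values, a 56.2-fold range. The log2 differences were 1.65 ± 0.86 for terminal combination against regressing (adjusted p = 0.734), 0.87 ± 0.84 for terminal combination against vehicle (adjusted p = 0.915) and -0.78 ± 0.85 for regressing against vehicle tumours (adjusted p = 0.722, edgeR). Without terminal combination replicate 2, the first was 0.57 and the second was -0.22. The gene shares 141 exonic bases with the antisense gene Gm19610, which had 355 reads in all beside 1829 for Ereg.

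Areg (ENSMUSG00000029378, chromosome 5, 91139599 to 91148432, plus strand) encodes amphiregulin, a ligand of EGFR. Read counts were 7, 5, 37 and 8 across terminal combination tumours 1 to 4, 2, 1, 7 and 1 across regressing tumours 1 to 4 and 1, 14, 139 and 8 across vehicle tumours 1 to 4. Vehicle replicate 3 alone held 7.07 CPM, all other tumours were at or under 1.81 CPM, and vehicle replicate 1 stood at 0.0428 CPM, the lowest of the 12. The filter on low counts removed it from the test. With no filter, edgeR gave a log2 difference of -3.81 for regressing against vehicle tumours (adjusted p = 0.357), and DESeq2 gave -3.86 (adjusted p = 0.0449). Of the 4 regressing tumours, 3 had 1 or 2 reads, where a fitted size depends on the prior count and is no bound.

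Nrg1 (ENSMUSG00000062991, chromosome 8, 31814551 to 32884029, minus strand) encodes neuregulin 1, the ligand of ERBB3 and ERBB4. Its values were 2.61, 3.57, 2.25 and 2.97 CPM across terminal combination tumours 1 to 4, 2.42, 4.53, 2.79 and 1.31 CPM across regressing tumours 1 to 4 and 8.73, 1.29, 1.68 and 6.71 CPM across vehicle tumours 1 to 4. Vehicle replicates 1 and 4 stood above all treated tumours and vehicle replicates 2 and 3 stood within or below their ranges. The log2 differences were 0.04 ± 0.59, -0.69 ± 0.59 and -0.73 ± 0.59 for terminal combination against regressing, terminal combination against vehicle and regressing against vehicle tumours (edgeR, adjusted p of 0.991, 0.9 and 0.62). Without vehicle replicate 1 the last 2 were -0.18 and -0.20. A count per gene does not separate its 18 annotated transcripts.

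**Figure D3:**
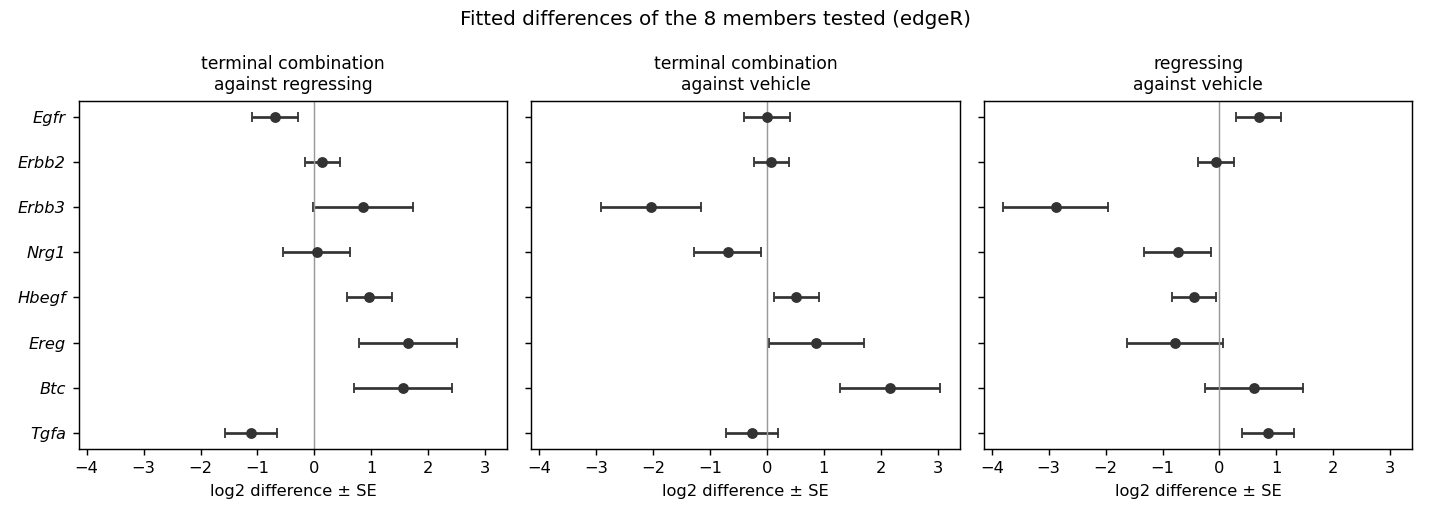
Fitted log2 differences with their SE for the 8 members that passed the filter, in 3 comparisons (edgeR, all 12 libraries). The Erbb3 point for regressing against vehicle tumours, -2.88, is the farthest from 0, and no member passed an adjusted p under 0.05.

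Per length, as CPM per kilobase of the union of exons, the means over 12 tumours put Egfr first (6.46), then Hbegf (6.11), Erbb2 (5.48), Ereg (2.05), Btc (2.02), Erbb3 (1.07), Areg (0.828), Nrg1 (0.329), Tgfa (0.247) and Erbb4 (0.00271). Only the last step, Tgfa above Erbb4, held in every tumour with ranges that did not meet, and each other pair of neighbours overlapped. With the longest transcript as the length, Hbegf stood first and Egfr second, and Btc and Ereg exchanged places. The regressing tumours were led by Egfr at 8.66 ± 2.33, while Hbegf had the highest mean in terminal combination tumours (8.29 ± 4.005) and in vehicle tumours (5.80 ± 1.93).

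**Figure D4:**
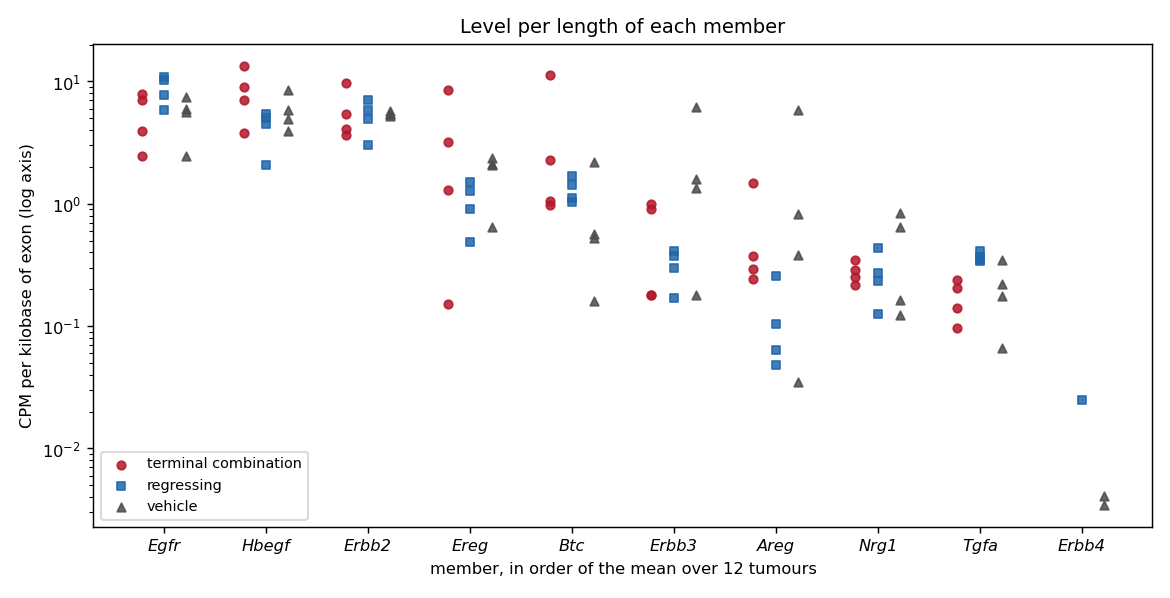
CPM per kilobase of exon (log axis) of each member in each tumour, in order of the mean over 12 tumours, with terminal combination, regressing and vehicle tumours from left to right. The 9 libraries with 0 Erbb4 reads are not drawn, and neighbouring members overlap except Tgfa and Erbb4.

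Among the ligands, Hbegf led in 10 of 12 tumours by level per length. Btc led in terminal combination replicate 2 with 38.0% of the summed ligand level, and Areg and Hbegf stood level at 39.6% each in vehicle replicate 3. The summed ligand level was 16.5 ± 9.87 in terminal combination, 7.34 ± 1.97 in regressing and 10.9 ± 4.04 in vehicle tumours (CPM per kilobase, SD, n = 4). The lowest terminal combination tumour stood at 8.79 and the highest regressing tumour at 8.76, and with the longest transcript as the length those ranges overlapped (11.8 in the lowest terminal combination tumour and 13.1 in the highest regressing tumour). Tgfa made up 0.809% to 1.62% of the sum in terminal combination tumours, 3.98% to 8.10% in regressing tumours and 0.470% to 4.68% in vehicle tumours. With the longest transcript as the length, Hbegf led in all 12 libraries.

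**Figure D5:**
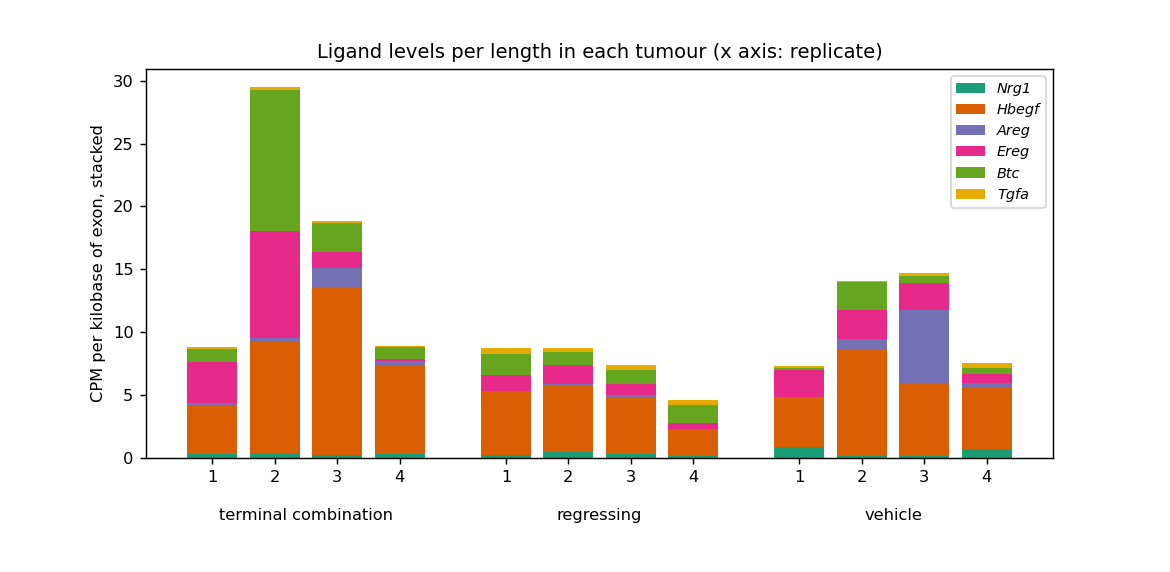
Stacked levels per length (CPM per kilobase of exon) of the 6 ligands in each of 12 tumours, with terminal combination tumours left of regressing and vehicle tumours. Terminal combination replicate 2 has the highest sum, 29.5, with Btc, Hbegf and Ereg each above 8, while the regressing tumours lie between 4.55 and 8.76.

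The members differed in how far tumours of 1 group spread. The biological coefficient of variation in the edgeR fit was 0.817 for Erbb3, 0.804 for Btc and 0.801 for Ereg, above 89.8% or more of the genes tested, and 0.590 for Nrg1. It was 0.437 for Tgfa, 0.404 for Hbegf and Egfr and 0.340 for Erbb2, beside a median of 0.339 over all genes tested.

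The genes most like each member over the 12 libraries were found by Pearson's r on log2 CPM, as a description without a test. Erbb3 was most like Cdk5r1 (r = 0.956), Zbed4 (0.932) and Ripply1 (0.919), all highest in vehicle replicate 1 as Erbb3 was. Hbegf was most like Cdh2 (0.923), Sdc4 (0.913) and Dennd2a (0.911), Egfr most like Gnpda2 (0.911) and Milr1 (0.891), and Erbb2 most like Gipc1 (0.915), Usp32 (0.894) and Miga2 (0.893). Btc was most like Gprc5b (0.898), Def8 (0.896) and Cdipt (0.889), and Ereg most like Pde6h (0.864), Slit2 (0.863) and Chka (0.849), all 6 highest in terminal combination replicate 2. Tgfa was most like 0610040B10Rik (0.918), Palm3 (0.894) and Bcap29 (0.890), and Nrg1 most like Bach2os (0.861), Cacna1f (0.856) and Slc16a7 (0.841). The libraries share tissue content and depth, so these values describe 12 samples only.

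The rest of the pathway was read from lists of 36 genes, of which 32 were tested: other ligands (1 of 5 tested), ligand-shedding proteases and their partners (5 of 5), receptor restraint (8 of 8), adaptors (6 of 6) and MEK-ERK output genes (12 of 12). In edgeR none passed an adjusted p under 0.05 in any comparison, where 0% of all genes did. Without adjustment, 1 of 32 had a p under 0.05 for terminal combination against regressing tumours (7.02% of all genes). It was 3 of 32 for terminal combination against vehicle tumours (5.94%) and 3 of 32 for regressing against vehicle tumours (12.7%). DESeq2 called 1 of the pathway genes, Egf, for regressing against vehicle tumours (2.66% of all genes). The median log2 difference was 0.23 for terminal combination against regressing tumours, with 28 genes higher and 4 lower, 0.27 for terminal combination against vehicle tumours, with 20 higher and 12 lower, and -0.11 for regressing against vehicle tumours, with 10 higher and 22 lower, beside 0.01, 0.00 and -0.02 over all genes tested in the same order. The MEK-ERK output score was 6.32 ± 0.34 in terminal combination, 6.06 ± 0.35 in regressing and 6.18 ± 0.52 in vehicle tumours.

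Of the 32 pathway genes tested outside the 10 members, Egf, the founding ligand of EGFR, had the largest difference. Measured levels were 1.07, 15.1, 2.40 and 5.31 CPM across terminal combination tumours 1 to 4, 20.6, 1.22, 4.35 and 11.8 CPM across regressing tumours 1 to 4 and 1.75, 0.214, 0.356 and 1.05 CPM across vehicle tumours 1 to 4. The log2 difference was 3.46 ± 1.04 for regressing against vehicle tumours (unadjusted p = 0.00628, adjusted p = 0.254, edgeR; adjusted p = 0.0114, DESeq2) and 2.79 ± 1.01 for terminal combination against vehicle tumours (adjusted p = 0.819). The 3 highest values came from regressing replicates 1 and 4 and terminal combination replicate 2, the libraries with the highest muscle scores. Once the muscle score was a covariate, the difference between regressing and vehicle tumours was 0.16 (adjusted p = 1). That score itself differed between the groups, at 10.43 ± 1.71 in regressing and 7.26 ± 1.77 in vehicle tumours. Such a fit therefore separates muscle content from group only in part. The part of muscle in the Egf values was not tested.

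The other pathway genes with the smallest p were Adam17, the main protease of ligand release, at -0.36 ± 0.14 (adjusted p = 0.327), and Sos1, an exchange factor of RAS, at -0.44 ± 0.17 (adjusted p = 0.317), for regressing against vehicle tumours. Rhbdf2, a partner of ADAM17, differed by 0.90 ± 0.36 and Fos, an immediate early gene of ERK signalling, by -2.37 ± 1.03 (adjusted p of 0.819 for both) for terminal combination against vehicle tumours. Fos stood at 14.95 to 27.5 CPM in terminal combination tumours, at 363 CPM in vehicle replicate 2 and at 5.08 to 34.3 CPM in the other vehicle tumours. Without vehicle replicate 2 its difference was 0.14, the opposite direction. Among libraries lacking the FFT title ending, which also leave out that tumour, the Fos difference was 1.09. With that ending as a covariate it was -1.13, and with the muscle score as a covariate it was -0.73. Bace1, a protease that cleaves neuregulin 1, differed by 0.60 ± 0.20, Phlda1 by 0.52 ± 0.24 and Rnf41, a ubiquitin ligase of ERBB3, by 0.44 ± 0.21 for terminal combination against regressing tumours (adjusted p of 0.692, 0.708 and 0.717, edgeR). Rnf41 stood at 108.6 CPM in terminal combination replicate 1 and at 55.7 to 59.6 CPM in the others of that group. Among libraries lacking the FFT title ending, Bace1 differed by 0.705, Phlda1 by 0.304 and Rnf41 by 0.13 in that comparison. There Adam17 differed by -0.12 and Sos1 by -0.37 for regressing against vehicle tumours, and Rhbdf2 by 0.32 for terminal combination against vehicle tumours. With that ending as a covariate in all 12 libraries, Bace1 differed by 0.612, Phlda1 by 0.485 and Rnf41 by 0.386 in the same comparisons. Adam17 then differed by -0.333, Sos1 by -0.463 and Rhbdf2 by 0.899.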

How the data were processed

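Each of 12 libraries came as the authors' deposited table of counts, not normalised, with whole numbers for Ensembl gene identifiers. Per the labels' protocols, RNA was prepared with the RNeasy mini kit and libraries with the TruSeq stranded mRNA kit. The submitters' processing notes name HISAT2 2.2.1, Salmon, DESeq2 1.24.0, GRCm38.p6 and mm10. The counting tool, its strand setting and its annotation are not given in the sources used here, so overlapping genes may share reads. Symbols, positions and exon lengths came from GENCODE M21 (54495 of 54532 identifiers found). No 2 libraries were duplicates (lowest chi-square per degree of freedom over 66 pairs 56.8).

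Low genes were removed with filterByExpr at a minimum count of 10 and a minimum total of 15. The counts of all 12 libraries were normalised by TMM and fitted with edgeR 4.0.16 (R 4.3.3, limma 3.58.1) in 1 quasi-likelihood model with group as the only term. P-values were adjusted by Benjamini-Hochberg over all 15650 genes, with a threshold of 0.05. DESeq2 1.42.0 was an alternative. Log2 CPM used a prior count of 2. Standard errors were derived as the fitted log2 difference divided by the root of its F value. Tables and figures used Python 3.11.15, pandas 2.3.3, numpy 2.4.6 and matplotlib 3.10.9. On simulated counts for regressing against vehicle tumours (15650 genes, 3 draws, 200 genes changed in each), edgeR called 20.0%, 66.7%, 71.3% and 82.0% of genes changed 2-, 4-, 8- and 16-fold, and 18 unchanged genes. These shares are averages over genes drawn at random, without differences in tissue content. They are not rates for single members, as the biological coefficient of variation was 0.817 for Erbb3 beside a median of 0.339 over all genes tested.

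The members, gene lists and tests were chosen with earlier results of these data known. Named genes were the 10 members, the 3 pathway genes with the smallest p in each comparison, the 3 genes most like each member, and overlapping genes. A few results under this rule are not reported here. Macrophage, fibroblast, endothelial and mast cell marker scores were also computed. The macrophage score was 7.91 ± 0.35 in terminal combination, 8.13 ± 0.46 in regressing and 7.91 ± 0.82 in vehicle tumours. The other 3 were, in the same order of groups, 9.84, 10.11 and 9.29 for fibroblast, 5.38, 5.80 and 5.58 for endothelial and 3.21, 3.89 and 2.67 for mast cell genes. The alternatives were RLE scaling, no filter, DESeq2, 2 groups per fit, the FFT title ending as a covariate or left out, the muscle score as a covariate, 3 muscle-rich libraries left out, each library left out, and the longest transcript as the length.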

Additional observations from a re-analysis of the deposited data

Results flagged for a closer look

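Within groups of 4 tumours, 29 sets of values (10 members in 3 groups, except Erbb4 in terminal combination tumours, where all 4 values were 0) were checked for a tumour far from the other 3 by Dixon's criterion, and 5 were found. The criterion flags about 1 group in 20 by chance where values are normally distributed. That rate need not hold for CPM values that are skewed or near 0, so the count of 5 cannot be read as an excess. Btc stood at 50.63 CPM in terminal combination replicate 2, against 4.39 to 10.2 CPM in the other 3 tumours of that group. Areg stood at 1.809 CPM in terminal combination replicate 3, above 0.298 to 0.456 CPM in the others, and at 7.066 CPM in vehicle replicate 3, above 0.0428 to 1.00 CPM in the others. Erbb4 stood at 0.3085 CPM in regressing replicate 4, which is 4 reads where the other 3 tumours had 0, a pattern that the criterion always flags. Ereg stood at 2.684 CPM in vehicle replicate 4, below 8.64 to 9.72 CPM in the others. The cause of these values was not tested.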

How the results depend on the processing

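Of 504 recomputed member differences (24 differences under 21 settings), 481 kept their direction and side of the threshold, 22 changed sign and 1, Erbb3 for regressing against vehicle tumours, passed only in DESeq2 (-2.87). The settings reuse the same libraries, and with 0% of genes called in the main fit, keeping the side of the threshold says little. Of the sign changes, 9 belong to Egfr for terminal combination against vehicle tumours, fitted at 0.00. DESeq2 called 2 members and 1 pathway gene for regressing against vehicle tumours (2.66% of all genes), against 0 in edgeR (0%). It called 0 for terminal combination against vehicle tumours (0.0531%) and 0 for terminal combination against regressing tumours (0.462%). Erbb2 for regressing against vehicle tumours was 0.14 without the 3 muscle-rich libraries and 0.16 with the muscle score as a covariate. Egfr for terminal combination against vehicle tumours was -0.05 with the FFT title ending as a covariate, and -0.16 both without the 4 libraries that carry it and with the muscle score as a covariate. Without the muscle-rich libraries, Ereg for terminal combination against vehicle tumours was -0.24 and Nrg1 for terminal combination against regressing tumours was -0.49. Leaving out each library in turn gave -0.24 to 0.13 for Erbb2 in regressing against vehicle tumours. For terminal combination against vehicle tumours it gave -0.25 to 0.24 for Egfr, -0.30 to 0.24 for Erbb2, -0.22 to 1.26 for Ereg and -0.55 to 0.13 for Tgfa. For terminal combination against regressing tumours it gave -0.26 to 0.32 for Erbb2 and -0.19 to 0.37 for Nrg1. The cause of these changes was not tested. By length, Egfr ranked 2, Hbegf 1, Ereg 5 and Btc 4 with the longest transcript. Without vehicle replicate 1 and regressing replicate 3, chosen after seeing the data, 0 members were called. No paired analysis was possible because no label links tumours of different groups. Depth limits Erbb4 and Areg, whose counts in some libraries were 0 to 2 reads.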

Other observations

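Ereg, Areg and Btc are neighbours. With Epgn, which encodes the further EGFR ligand epigen and was picked out after its values were seen, they lie on chromosome 5 between 91027464 and 91402994 (GRCm38), a span of 376 kb that holds 7 annotated genes, 4 of them protein coding. Their highest values came from different tumours. Btc (50.6 CPM) and Ereg (35.3 CPM) were highest in terminal combination replicate 2, Areg (7.07 CPM) and Epgn (4.02 CPM) in vehicle replicate 3. In terminal combination replicate 2, Areg stood at 0.298 CPM and Epgn at 0.0596 CPM. In vehicle replicate 3, Btc stood at 2.54 CPM and Ereg at 8.79 CPM. Whether these neighbours share regulation was not tested.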
